A study of Mus musculus with 15 samples.

Results

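Complement is the blood-borne arm of innate immunity, a chain of proteases and pore-forming proteins that is made largely by the liver. The rule for this report names 9 complement genes, C1s1, C2, C3, C6, C8a, C8b, C9, Cfb and Cfi, and 8 of them have a probe set that the array annotation pairs with the symbol (10 probe sets among 45101 in the table). C2 has 3 probe sets and each of the other measured members has 1, and C3 was not analysed here. For the tests each gene was represented by its brightest probe set, which gave 18193 genes.

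The data are mouse microarrays, 3 for each of 5 groups of cells, with expression given as log2 values after robust multi-array average (RMA) normalisation. MSC are mesenchymal stromal cells kept in low-glucose medium with 10% serum. HD28 are MSC that received hepatocyte growth factor (20 ng/ml), basic fibroblast growth factor (10 ng/ml) and nicotinamide (0.61 g/L) for 7 days, and then oncostatin M (20 ng/ml), dexamethasone (1 µmol/L) and an insulin-transferrin-selenium premix. The dHD28 cells are HD28 cells whose second medium was replaced with MSC medium, so they carry the same earlier treatment. Hepatocyte denotes primary mouse hepatocytes in DMEM/F12 with 10% serum, and MLC are primary hepatocytes cultured in MSC medium with TGF-β1 at 10, then 5, then 1 ng/ml up to day 28, and afterwards in MSC medium alone. Strain, age and sex of the animals are not stated in the labels used here. No label ties the replicates to separate animals or cultures, so p-values measure only the spread between these samples, which may be technical. In bulk RNA, fewer cells of a type and less RNA per cell cannot be told apart.

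Complement is started by 3 routes. In the classical route the C1 complex, built from the recognition protein C1q and the serine proteases C1r and C1s, binds antibody and cleaves C4 and C2. In the lectin route mannose-binding lectins act with the MASP proteases on the same substrates. The alternative route is amplified by factor B, which forms a convertase with C3, and is held back by the protease factor I. All routes lead to a terminal complex of C5b, C6, C7, C8 and C9 that inserts into membranes. In liver, hepatocytes secrete most of these proteins, and several are acute-phase proteins whose genes respond to cytokines of the interleukin-6 family, to which oncostatin M belongs.

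Array medians lay between 4.84 and 4.95 and lower quartiles between 3.43 and 3.69. HD28 replicate 3 stood apart from the other HD28 arrays in liver genes. The mean over 11 hepatocyte markers was 11.6 in it, 4.34 and 4.56 in HD28 replicates 1 and 2, and between 12.96 and 13.15 in the hepatocytes, whereas its 9 stromal markers (mean 11.1) were at the level of the other HD28 arrays (11.11 and 11.18). Its 13 Kupffer cell and macrophage markers had a mean of 5.40, against 4.03 to 4.31 in HD28 replicates 1 and 2 and 6.10 to 7.93 in the hepatocyte arrays, which hold these markers too. The difference between its 3' and 5' actin probe sets, a sign of RNA quality, was 0.94, against 0.29 and 0.23 in HD28 replicates 1 and 2 and 0.66 to 1.24 in the hepatocytes. HD28 results are therefore given with and without this array. The poly-A spike-in controls fell into a high class of 6 arrays (means 7.35 to 8.50) and a low class of 9 arrays (4.70 to 5.49), and each group held both classes. Albumin (Alb) stood between 14.10 and 14.15 in the hepatocytes and under 4 in every MSC, dHD28 and MLC array. The collagen gene Col1a1 stood between 12.83 and 13.61 in the 12 arrays of the other groups and at 4.91 or lower in the hepatocytes. Of the other stromal markers, Col1a2, Col3a1, Pdgfra, Pdgfrb, Vim and Postn also stood higher in every MSC array than in the hepatocytes. Eng was lower in MSC (6.40 to 6.63) than in hepatocytes (7.49 to 8.30), and Thy1 overlapped (3.91 to 5.91 and 4.23 to 4.92).

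In the reference comparison all 8 measured members were higher in primary hepatocytes than in MSC, and for each of them the 3 hepatocyte arrays lay above the 3 MSC arrays. The test was limma, with p adjusted by the Benjamini-Hochberg method over 18193 genes and a gene was called where that p was below 0.05 and the change reached 2-fold. Of all genes, 11.8% were called higher and 18.3% lower in this comparison. The share of all genes whose arrays did not overlap was not counted, here or in the later comparisons. The median change of the members was 6.33 on the log2 scale, and that of all genes was 0.04. C8a, C8b, C9 and Cfi were below the array median in all MSC, dHD28 and MLC arrays. C6 was higher in these arrays (4.50 to 5.60) and is described with them. Cfb was also low there (4.62 to 5.10) but was raised in all HD28 arrays, and C1s1 and C2 had other patterns. This division was drawn after the values were seen.

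**Figure D1:**
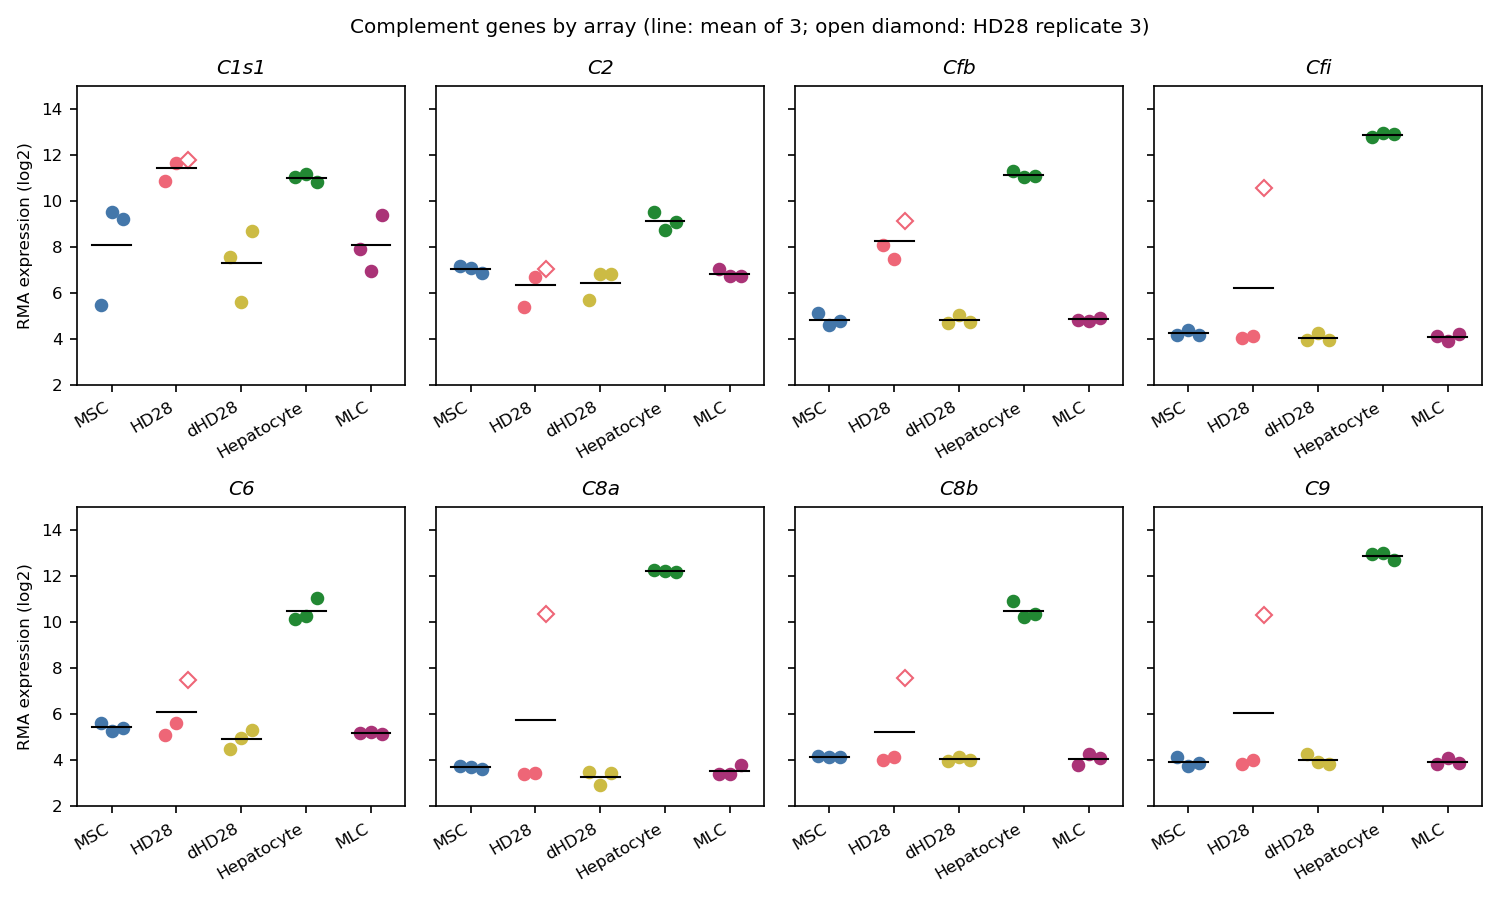
RMA expression (log2, vertical axis) of the 8 measured complement genes in each of the 15 arrays, by group; each point is 1 array, the line is the mean of 3, and the open diamond is HD28 replicate 3. The hepatocyte arrays of C6, C8a, C8b, C9 and Cfi stand above all others, HD28 replicate 3 is the only other array above 7 in these genes, and C1s1 and Cfb are raised in all 3 HD28 arrays.

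C1s1 encodes C1s, the protease of the C1 complex that cleaves C4 and C2. Its level was 5.48, 9.50 and 9.22 in MSC replicates 1 to 3, 10.88, 11.65 and 11.78 in HD28, 7.54, 5.61 and 8.70 in dHD28, 11.02, 11.16 and 10.82 in hepatocytes, and 7.92, 6.95 and 9.40 in MLC. All HD28 arrays lay above all MSC, dHD28 and MLC arrays, and they overlapped with the hepatocyte arrays. C1s1 rose 10.3-fold from MSC to HD28 (log2 3.37 ± 0.98, SE, n = 3 per group, limma adjusted p = 0.044). It fell 17.8-fold from HD28 to dHD28 (log2 -4.15 ± 0.98, adjusted p = 0.013). It was 7.62-fold higher in hepatocytes than in MSC (log2 2.93 ± 0.98, adjusted p = 0.026) and 7.49-fold lower in MLC than in hepatocytes (log2 -2.90 ± 0.98, adjusted p = 0.026). Of the 8 measured members it was the one whose HD28 mean did not pass the test against hepatocytes (HD28 minus Hepatocyte log2 0.44 ± 0.98, adjusted p = 0.74).

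Within MSC, dHD28 and MLC the C1s1 level moved with the spike-in class. The lowest array of MSC (5.48, replicate 1), the lowest of dHD28 (5.61, replicate 2) and the lower 2 of MLC (7.92 and 6.95, replicates 1 and 2) are those of the high class, whereas in HD28 and hepatocytes the high-class array (11.65 and 11.02) was the middle one. A block for the class cannot move the HD28 minus MSC estimate, since both groups hold the classes in the same proportion. It lowered the SE to 0.74 (adjusted p = 0.0087), under the assumption of one class effect in all groups, which the HD28 and hepatocyte arrays did not show. Among arrays of the low class alone, an alternative added after the values were seen, it was smaller (log2 1.97 ± 0.43, adjusted p = 0.048, with 2 MSC and 2 HD28 arrays). There the fall on return was log2 -3.21 (adjusted p = 0.0071) and the difference of hepatocytes from MSC was 1.63 (adjusted p = 0.019). That of MLC from hepatocytes was -1.59 and no longer called (adjusted p = 0.056). Without the block the call of the rise was narrow. It ended without MSC replicate 1 (log2 2.08, adjusted p = 0.16), without HD28 replicate 1, 2 or 3 (log2 3.65, 3.26 and 3.20, adjusted p = 0.072, 0.12 and 0.11), and without any 1 of dHD28 replicate 1, Hepatocyte replicates 1, 2 and 3 and MLC replicate 1 (log2 3.37 each, adjusted p from 0.055 to 0.060). Without MSC replicate 2 the rise was larger (log2 4.09, adjusted p = 0.033). The fall on return ended without dHD28 replicate 2 (log2 -3.31, adjusted p = 0.063) and was -4.86 without dHD28 replicate 3. The difference of hepatocytes from MSC ended without MSC replicate 1 (log2 1.64, adjusted p = 0.11) or any Hepatocyte array (log2 2.92, 2.85 and 3.02, adjusted p = 0.060, 0.063 and 0.052), and was 3.65 without MSC replicate 2. That of MLC from hepatocytes ended without any Hepatocyte array (log2 -2.89, -2.83 and -3.00, adjusted p = 0.061, 0.063 and 0.052), MLC replicate 1 (log2 -2.82, adjusted p = 0.069) or MLC replicate 2 (log2 -2.34, adjusted p = 0.11), and was -3.56 without MLC replicate 3. The probe set carries the suffix of sets that can match several transcripts, so signal from the near-identical gene C1s2 could not be separated.

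C1r is the partner protease that activates C1s in the same complex, and its gene C1ra is the neighbour of C1s1 on chromosome 6. C1ra stood at 7.79, 9.70 and 9.58 in MSC, at 10.84, 11.17 and 11.28 in HD28, at 8.54, 7.96 and 8.91 in dHD28, at 10.69, 10.48 and 10.28 in hepatocytes and at 8.88, 8.39 and 9.67 in MLC. As with C1s1, its HD28 arrays lay above all MSC, dHD28 and MLC arrays, and here also above the 3 hepatocyte arrays. C1ra rose 4.21-fold in HD28 (log2 2.07 ± 0.45, adjusted p = 0.010, and 1.98 with an adjusted p of 0.034 without HD28 replicate 3) and fell 6.19-fold in dHD28 (log2 -2.63 ± 0.45, adjusted p = 0.0019). Both calls held when any 1 array was left out, and the rise was log2 1.46 without MSC replicate 1 (adjusted p = 0.024). The rise had an adjusted p of 0.066 when only the 6 arrays compared entered the fit. HD28 did not pass the test against hepatocytes in C1ra (log2 0.61 ± 0.45, adjusted p = 0.29).

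**Figure D2:**
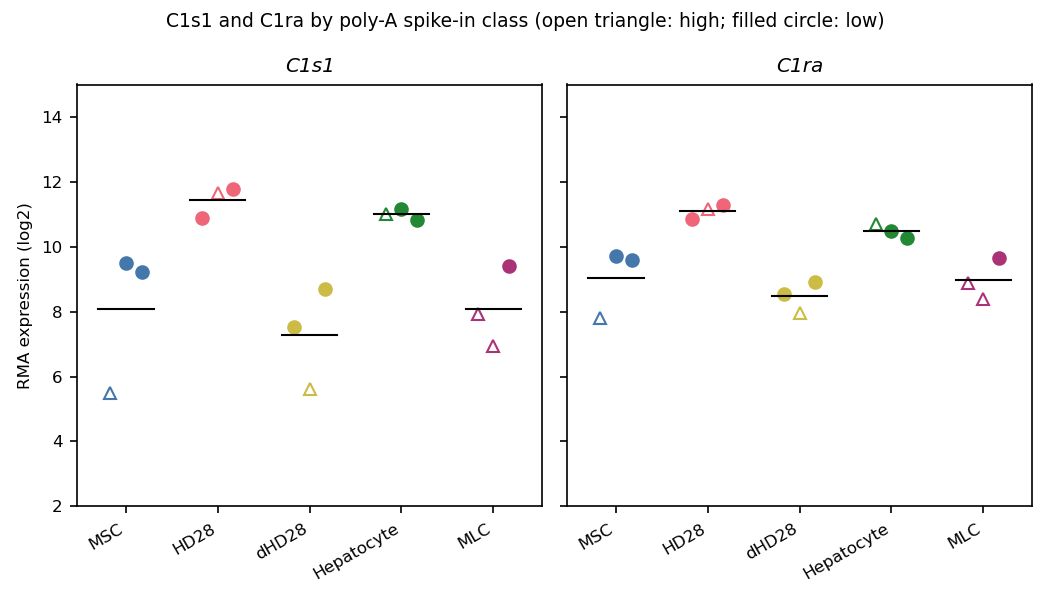
RMA expression (log2) of C1s1 and its neighbour C1ra in the 15 arrays by group; open triangles are arrays of high and filled circles arrays of low poly-A spike-in signal, and lines are group means of 3. In MSC, dHD28 and MLC the triangles lie lowest (C1s1 at 5.48, 5.61, 6.95 and 7.92), whereas the HD28 arrays of C1s1 lie between 10.88 and 11.78 in both classes.

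Cfb encodes factor B, the protease of the alternative pathway convertase. Its level was 5.10, 4.62 and 4.77 in MSC, 8.10, 7.48 and 9.14 in HD28, 4.69, 5.02 and 4.73 in dHD28, 11.29, 11.05 and 11.11 in hepatocytes, and 4.83, 4.79 and 4.93 in MLC. The HD28 arrays lay above every MSC, dHD28 and MLC array and below every hepatocyte array, and HD28 replicate 3 was the highest of them. Cfb was 10.6-fold higher in HD28 than in MSC (log2 3.41 ± 0.31, SE, n = 3 per group, adjusted p = 2.1e-05) and 7.77-fold higher without HD28 replicate 3 (log2 2.96 ± 0.21, adjusted p = 4.7e-06). It fell 10.8-fold in dHD28 (log2 -3.43 ± 0.31, adjusted p = 1.8e-05). HD28 stayed 7.50-fold below hepatocytes (log2 -2.91 ± 0.31, adjusted p = 6.7e-06), or 10.3-fold without replicate 3. MLC were 78.8-fold lower than hepatocytes (log2 -6.30 ± 0.31, adjusted p = 1.1e-08). The dHD28 and MLC means (4.81 and 4.85) were within 0.02 of the MSC mean (4.83), less than the spread of the MSC arrays (SD 0.25). In each of these groups 2 of 3 arrays were below the array median. Likeness at this level is limited by background, and the fold sizes are approximate.

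The genes whose pattern over the 15 arrays was most like that of Cfb were Clu (Pearson r = 0.995), Abhd3 (0.994), Sult1a1 (0.992) and Aspg (0.989). Without HD28 replicate 3 they were Clu (0.997), Abhd3 (0.993), Aspg and Nr1h3 (0.992 each), as a description of arrays that share groups. Clu encodes clusterin, a secreted chaperone that also binds the terminal complement complex. It stood at 5.98, 5.95 and 5.78 in MSC, 9.68, 9.12 and 11.90 in HD28, and 5.76, 6.18 and 6.23 in dHD28. Clu rose 20.1-fold in HD28 (log2 4.33 ± 0.50, adjusted p = 0.00015, and 3.50 with an adjusted p of 3.5e-06 without HD28 replicate 3) and fell 18.1-fold in dHD28 (log2 -4.18 ± 0.50, adjusted p = 0.00018, and -3.34 without HD28 replicate 3).

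C2 encodes the protease that C1s cleaves to form the classical convertase, and it is a relative of factor B whose gene lies next to Cfb on chromosome 17. Its probe sets differed in cells other than hepatocytes. The brightest one, 1441912_x_at, stood at 7.17, 7.07 and 6.86 in MSC, 5.38, 6.67 and 7.03 in HD28, 5.68, 6.83 and 6.81 in dHD28, 9.52, 8.76 and 9.07 in hepatocytes, and 7.03, 6.74 and 6.76 in MLC. Set 1416051_at stood at 4.40, 4.39 and 4.40 in MSC, 3.66, 4.15 and 6.05 in HD28, 3.76, 4.32 and 3.96 in dHD28, 9.34, 9.13 and 9.33 in hepatocytes, and 4.11, 3.91 and 4.28 in MLC. Set 1457664_x_at had the same order of hepatocytes over the rest, with hepatocyte arrays at 9.46, 8.64 and 8.92, HD28 arrays at 4.63, 5.02 and 5.81, and MSC arrays between 4.44 and 4.66. In each probe set the 3 hepatocyte arrays were above the other 12, and the dHD28 and MLC arrays of 1416051_at were all below the array medians.

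The size of the hepatocyte difference depended on the C2 probe set. Hepatocyte minus MSC was log2 2.08 ± 0.39 in 1441912_x_at (4.24-fold, adjusted p = 0.00061 in the test over genes), and 4.87 ± 0.43 in 1416051_at and 4.47 ± 0.30 in 1457664_x_at when every probe set was tested on its own (adjusted p = 1.7e-06 and 1.7e-07). HD28 minus MSC passed the test in none of the probe sets, with log2 -0.67 ± 0.39, 0.22 ± 0.43 and 0.62 ± 0.30 in that order (adjusted p = 0.40, 0.85 and 0.29 over probe sets). Without HD28 replicate 3 the values were -1.01 ± 0.40, -0.49 ± 0.20 and 0.29 ± 0.27 (adjusted p = 0.19, 0.20 and 0.65), so that the sign of 1416051_at turned with this array. The suffix x_at marks sets with probes that can bind other transcripts, and 1416051_at does not carry it.

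**Figure D3:**
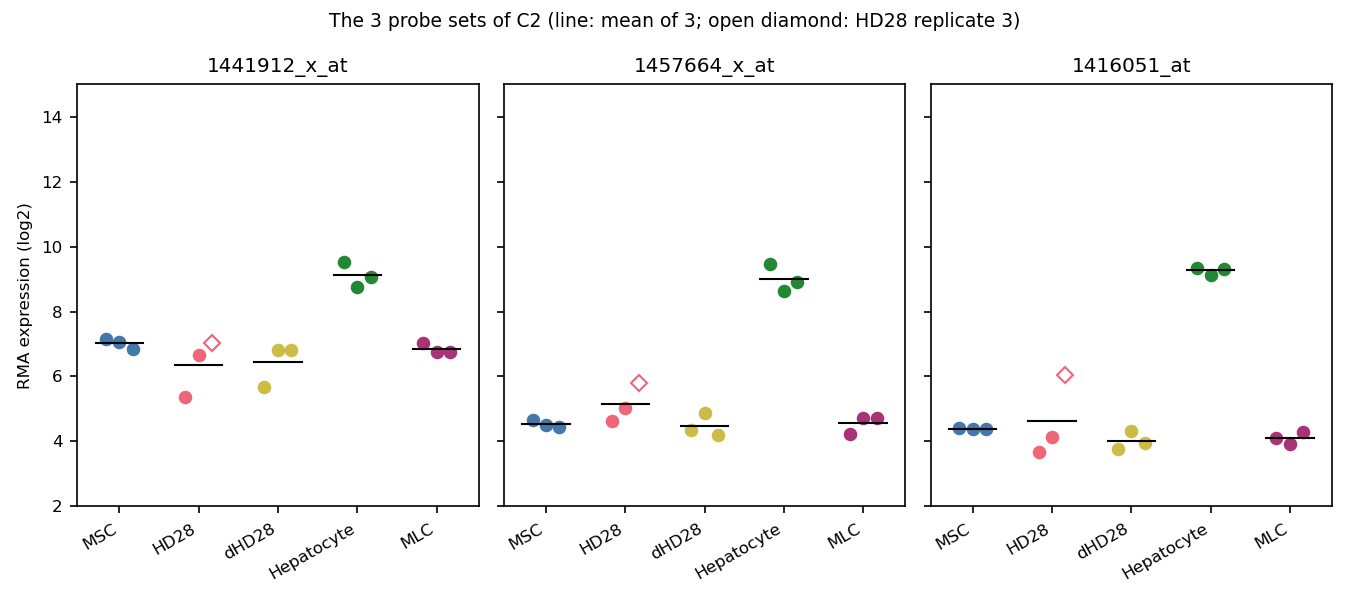
RMA expression (log2) of the 3 probe sets of C2 in the 15 arrays by group; each point is 1 array, lines are means of 3, and the open diamond is HD28 replicate 3. Set 1441912_x_at lies between 5.38 and 7.17 outside hepatocytes, where the MSC arrays of the other sets lie between 4.39 and 4.66, and all 3 sets lie between 8.64 and 9.52 in hepatocytes.

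The remaining members are the terminal components C6, C8a, C8b and C9 and the regulator Cfi. C6 joins C5b at the membrane, C8a and C8b encode the alpha and beta chains of C8, C9 polymerises into the pore, and factor I (Cfi) cuts C3b and C4b. C8a and C8b are neighbouring genes on chromosome 4, and C6 and C9 are both on chromosome 15. Of the 8 measured members 5 had an entry in the RefSeq promoter table (build GRCm38.p6), with 6 starts in all. The sequence of the 250 bases before the start is shown for C8a, C8b and C9, which moved together over the arrays, and for C1s1, which did not follow them. Capitals mark matches on either strand to the letters of the 7 motifs searched.

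C8a, chr4:104876399-104876648, minus strand: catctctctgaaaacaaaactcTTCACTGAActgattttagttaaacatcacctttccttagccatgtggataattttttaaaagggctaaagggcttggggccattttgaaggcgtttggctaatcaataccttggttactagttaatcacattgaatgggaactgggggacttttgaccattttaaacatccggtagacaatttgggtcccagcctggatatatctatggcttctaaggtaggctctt
C8b, chr4:104766067-104766316, plus strand: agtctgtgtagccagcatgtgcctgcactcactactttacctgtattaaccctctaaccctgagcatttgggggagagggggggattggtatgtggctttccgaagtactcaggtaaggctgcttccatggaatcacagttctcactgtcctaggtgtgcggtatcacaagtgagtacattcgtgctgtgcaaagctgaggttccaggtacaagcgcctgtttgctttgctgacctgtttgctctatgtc
C9, chr15:6445096-6445345, plus strand: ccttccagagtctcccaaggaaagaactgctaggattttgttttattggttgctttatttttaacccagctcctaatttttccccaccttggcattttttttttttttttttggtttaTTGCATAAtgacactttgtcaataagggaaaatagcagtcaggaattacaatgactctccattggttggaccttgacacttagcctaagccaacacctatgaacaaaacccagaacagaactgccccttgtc
C1s1, chr6:124542360-124542609, minus strand: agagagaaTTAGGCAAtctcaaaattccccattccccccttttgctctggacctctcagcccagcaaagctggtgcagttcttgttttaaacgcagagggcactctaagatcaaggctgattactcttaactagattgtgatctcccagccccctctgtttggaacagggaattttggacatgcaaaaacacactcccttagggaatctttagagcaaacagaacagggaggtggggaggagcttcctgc

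The C/EBP letters TTGCNNAA matched in C9 and at this start of C1s1, and are present in 9.56% of 32851 windows of the same length before RefSeq starts. The STAT letters TTCNNNGAA matched in C8a and are present in 7.02% of the windows. No match was found in the 6 member windows for the TATA box TATAAA (12.4% of all windows), FOXA TGTTTAC (3.17%), HNF4 CAAAGTCCA (0.384%), the glucocorticoid receptor motif (0.387%) or the HNF1 motif (0.00913%). The motifs were searched without regard to overlap with each other. A match describes letters in the window and does not show binding.

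C9 stood at 4.13, 3.77 and 3.89 in MSC, at 3.85, 4.01 and 10.33 in HD28, at 4.29, 3.93 and 3.82 in dHD28, at 12.98, 13.01 and 12.73 in hepatocytes, and at 3.83, 4.12 and 3.88 in MLC. The hepatocytes were high, HD28 replicate 3 was the single intermediate array, and the other 11 arrays were between 3.77 and 4.29, below the median of their array. Hepatocytes were 506-fold higher than MSC (log2 8.98 ± 1.20, SE, adjusted p = 3.5e-05), where the standard error includes the spread of the HD28 arrays and was 0.17 without replicate 3. As MSC signal was below the array median, the size is approximate.

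Cfi had the same picture, with 4.17, 4.41 and 4.15 in MSC, 4.02, 4.13 and 10.54 in HD28, 3.96, 4.26 and 3.93 in dHD28, 12.78, 12.94 and 12.90 in hepatocytes, and 4.13, 3.91 and 4.22 in MLC. C8a stood at 3.77, 3.72 and 3.63 in MSC, 3.42, 3.44 and 10.38 in HD28, 3.49, 2.94 and 3.45 in dHD28, 12.28, 12.23 and 12.18 in hepatocytes, and 3.42, 3.40 and 3.82 in MLC. C8b stood at 4.20, 4.15 and 4.13 in MSC, 4.03, 4.14 and 7.57 in HD28, 3.97, 4.14 and 4.02 in dHD28, 10.93, 10.22 and 10.36 in hepatocytes, and 3.80, 4.29 and 4.09 in MLC. In these 3 genes too the only arrays above 5 were those of hepatocytes and HD28 replicate 3. Hepatocytes exceeded MSC by log2 8.63 in Cfi (396-fold), 8.53 in C8a (368-fold) and 6.35 in C8b (81.4-fold), with adjusted p of 5.2e-05, 0.00011 and 4.7e-06.

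C6 stood at 5.60, 5.29 and 5.41 in MSC, 5.12, 5.65 and 7.49 in HD28, 4.50, 4.95 and 5.33 in dHD28, 10.17, 10.30 and 11.08 in hepatocytes, and 5.20, 5.25 and 5.16 in MLC. The hepatocyte arrays were above all others and HD28 replicate 3 lay between. Hepatocytes were 33.9-fold higher than MSC (log2 5.08 ± 0.46, adjusted p = 1.4e-06).

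The order of the group means, with all arrays, was hepatocytes, then HD28, then the rest for C6, C8a, C8b, C9, Cfb and Cfi. It was HD28 and then hepatocytes for C1s1, and hepatocytes, MSC, MLC, dHD28 and HD28 for the brightest set of C2. Among MSC, dHD28 and MLC neighbours in the order overlapped for C1s1, C8b, C9, Cfb and Cfi. Small separations without a call were present for C8a and the brightest set of C2, in which all dHD28 arrays lay below the MSC arrays. In that set of C2 the gap was 6.83 against 6.86. In set 1457664_x_at of C2, dHD28 replicate 2 (4.89) lay above the MSC arrays. In set 1416051_at all dHD28 arrays (3.76 to 4.32) and all MLC arrays (3.91 to 4.28) lay below the MSC arrays (4.39 to 4.40). For C6 all MLC arrays lay below the MSC arrays. Over the 15 arrays the pairwise correlations among C6, C8a, C8b, C9 and Cfi ran from 0.967 (C6 with C8a) to 0.998 (C9 with Cfi), and C1s1 with any of these 5 from 0.552 to 0.597, as a description of arrays that share groups.

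HD28 were set against MSC to find what differentiation changed. Of the 8 measured members 2 rose, C1s1 and Cfb, and 0 fell, where 3.24% of all genes were called higher and 3.52% lower. The arrays of the groups did not overlap in these 2 and overlapped in the other 6. C6 (log2 0.65), C8a (2.04), C8b (1.09), C9 (2.14) and Cfi (1.99) had positive means that came from HD28 replicate 3, and their adjusted p ran from 0.31 to 0.44. Without that array the same values were -0.05, -0.28, -0.08, 0.00 and -0.17, with standard errors between 0.16 and 0.29 and adjusted p from 0.45 to 0.997. The median change of the members went from 2.02 to -0.06, where that of all genes was -0.08 and -0.09. In that fit 1 member, Cfb, rose (2.70% of all genes were called higher and 3.06% lower) and C1s1, at log2 3.20, had an adjusted p of 0.11.

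**Figure D4:**
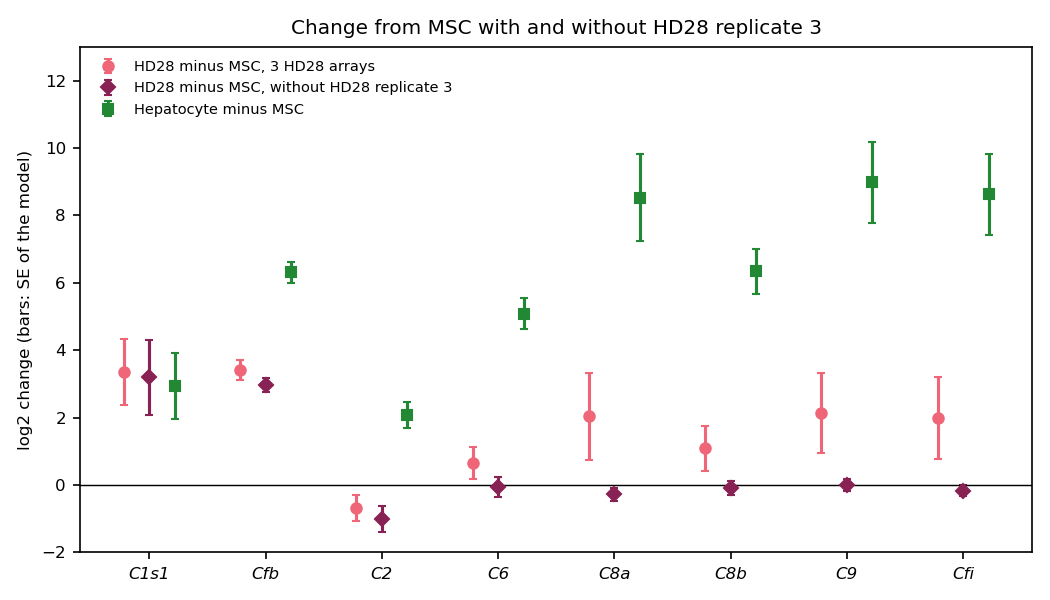
Log2 change from MSC (vertical axis, bars are standard errors of the model) for the 8 measured complement genes; circles are HD28 with 3 arrays, diamonds HD28 without replicate 3, and squares hepatocytes. For C6, C8a, C8b, C9 and Cfi the diamonds lie between -0.28 and 0.00, and for C1s1 and Cfb they stay at 3.20 and 2.96.

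In HD28 replicate 3 the members were at different distances from the hepatocyte mean. It lay below the hepatocytes by 1.85 log2 units in C8a (3.61-fold), 2.01 in Cfb, 2.08 in the brightest set of C2, 2.33 in Cfi, 2.58 in C9, 2.94 in C8b and 3.03 in C6 (8.14-fold), whereas C1s1 was above the hepatocyte mean. In the C2 sets 1416051_at and 1457664_x_at the gap was wider. There HD28 replicate 3 stood at 6.05 and 5.81, and the hepatocyte means at 9.27 and 9.01. The excess of HD28 replicate 3 over the mean of HD28 replicates 1 and 2 was 6.95 in C8a, 6.47 in Cfi, 6.40 in C9, 3.49 in C8b and 2.11 in C6, but 1.35 in Cfb and 0.52 in C1s1. Of 46 complement genes measured, members included, 26 were at least 1 log2 unit above the MSC mean in this array, as were 8.11% of all genes, in a count added after the values were seen. The number was 6 in HD28 replicate 1 (5.97% of all genes) and 5 in replicate 2 (5.09%), with C1s1, Cfb, C1ra and Clu in both. The macrophage-expressed subunit gene C1qb stood at 4.98 in replicate 3, against 2.83 and 2.87 in the others and 6.90 to 8.93 in the hepatocytes. C1qa, C1qc, Cd5l and Vsig4 were higher in it too. Cd68 (6.09 against 6.51 and 6.14) and Timd4 (3.31 against 2.65 and 3.47) were not above both others, and Adgre1 differed little (3.64 against 3.26 and 3.59). The mean hepatocyte and macrophage marker levels and the actin difference given above moved with these values, and their part in the result was not tested.

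HD28 remained below hepatocytes in 7 of 8 members, C1s1 being the exception, where 11.2% of all genes were called lower (11.7% without HD28 replicate 3). With all arrays the differences ran from log2 -2.76 in the brightest set of C2 to -6.85 in C9. In the C2 sets 1416051_at and 1457664_x_at the difference was -4.65 and -3.85, larger than that of Cfb (-2.91). Without replicate 3 the same 7 were lower, and C8a, C9 and Cfi differed by log2 -8.80, -8.98 and -8.80 (446-fold, 505-fold and 445-fold), in place of -6.48, -6.85 and -6.64 (89.5-fold, 115-fold and 99.8-fold). C8b and C6 differed by -6.42 and -5.13 in place of -5.26 and -4.43. Without HD28 replicate 1 the differences were -5.32 in C8a, -5.74 in C9, -5.53 in Cfi and -4.65 in C8b, and without HD28 replicate 2 -5.33, -5.82 and -5.59 in C8a, C9 and Cfi, with the calls kept.

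Setting dHD28 against HD28 compares cells after and before the second medium was replaced with MSC medium, and it shares the HD28 arrays with the comparison above. Loss of oncostatin M, dexamethasone and the premix came together with a new medium that holds serum and with further time in culture. The labels give no serum level for HD28. The parts of these changes were not tested apart. C1s1 and Cfb fell and 0 of 8 members rose, where 4.19% of all genes were called lower and 4.63% higher. Without HD28 replicate 3 both again fell (C1s1 log2 -3.98, adjusted p = 0.042; Cfb log2 -2.98, adjusted p = 4.4e-06), with 3.44% of all genes lower. C6 changed by log2 -1.16 ± 0.46 (adjusted p = 0.12), and by -1.64 with an adjusted p of 0.033, a call, without HD28 replicate 1. C8a, C8b, C9 and Cfi changed by -2.45, -1.20, -2.05 and -2.18 without passing the test (adjusted p from 0.26 to 0.32), and by -0.14, -0.04, 0.08 and -0.02 without HD28 replicate 3.

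MLC, which began as hepatocytes, were lower than hepatocytes in 8 of 8 members with no overlap of arrays, where 12.0% of all genes were called lower and 18.4% higher. The differences were log2 -8.97 in C9 (501-fold), -8.79 in Cfi (441-fold), -8.69 in C8a (412-fold), -6.45 in C8b, -6.30 in Cfb, -5.31 in C6, -2.90 in C1s1 and -2.28 in the brightest set of C2. The adjusted p ran from 1.1e-08 (Cfb) to 0.026 (C1s1), and the limits of the call of C1s1 are given above. The median over the members was -6.37, and over all genes -0.06.

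Among MSC, dHD28 and MLC, limma called no member. In dHD28 minus MSC, MLC minus MSC and MLC minus dHD28, 0 of 8 passed, and 0 of 8 had an unadjusted p under 0.05 (1 in dHD28 minus MSC without HD28 replicate 3, none in the other comparisons). Over all genes 0% were called in each, and 205, 91 and 64 of 18193 had an unadjusted p under 0.05. The largest differences among the members were those of C1s1, with log2 -0.78 ± 0.98 in dHD28 minus MSC and 0.81 ± 0.98 in MLC minus dHD28. For Cfb they were -0.02, 0.02 and 0.04 in the order given, each with a standard error of 0.31. A p that misses the threshold does not show that the groups are alike.

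The other complement genes were described from lists of 49 genes, of which 38 were measured. In hepatocytes 23 were higher than in MSC and 2 lower (median log2 2.51), where 11.8% of all genes were higher and 18.3% lower (median 0.04). In the classical and lectin list 10 of 13 were higher, such as the mannose-binding lectins Mbl2 (log2 8.96) and Mbl1 (5.98), the protease Masp2 (5.20) and C1qb (4.77). The C1q genes, Vsig4 and Fcna are expressed by Kupffer cells, whose markers were present in the hepatocyte arrays as given above. The 2 that were lower are the collectin Colec12 (log2 -2.43) and the protease Masp1 (-1.72), both at 8 or above in every MSC array. In the list of the alternative and terminal routes Hc, the gene of C5, and C8g, the gamma chain of C8, were higher (log2 8.18 and 8.45), and properdin (Cfp) was not called (-0.77). Of 13 regulators 10 were higher, among them vitronectin (Vtn, 8.73) and the C1 inhibitor Serping1 (8.44), and of 9 receptors 1 was, the macrophage receptor Vsig4 (5.04).

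In HD28 against MSC, 2 of the 38 rose, C1ra and Clu, and 0 fell (median log2 0.46), where 3.24% of all genes were called higher (median -0.08), and the same 2 rose without HD28 replicate 3. Serping1, which blocks C1r and C1s, stood at 6.52, 3.75 and 9.74 in HD28 against 3.45 to 3.66 in MSC and did not pass (log2 3.13 ± 0.99, adjusted p = 0.064). It passed when the model held the replicate number (adjusted p = 0.040) or the spike-in class (adjusted p = 0.033) as a block. With the class block and HD28 replicate 3 left out it also passed (log2 1.72, adjusted p = 0.036), as with array weights (adjusted p = 0.035). Of the 15 fits that leave out 1 array it passed in 1, that without HD28 replicate 2 (log2 4.59, adjusted p = 0.0016). HD28 replicate 2 was near the MSC level, and replicates 1 and 3 were above it. The terminal genes Hc and C8g had log2 1.60 and 2.14 with all arrays, and -0.31 and 0.47 without replicate 3, with no call in either fit. None of the 9 receptors was called, and the largest values were those of Itgb2 (0.92) and Cd93 (-0.91). C1qbp had an adjusted p of 0.011 at log2 -0.78, short of the fold limit.

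In dHD28 against HD28, where 4.19% of all genes were called lower, 4 of the 38 fell and 0 rose: C1ra, Clu, Masp1 (log2 -1.15 ± 0.32, adjusted p = 0.028) and Serping1 (log2 -3.25 ± 0.99, adjusted p = 0.045). The call of Masp1 ended without any 1 HD28 array or dHD28 replicate 1 or 2 (adjusted p up to 0.12), and with the mean of its probe sets in place of the brightest (log2 -0.57, adjusted p = 0.12). That of Serping1 held in 2 of the 15 fits that leave out 1 array, those without MSC replicate 1 or HD28 replicate 2 (log2 -4.71 in the latter), and had log2 -1.71 (adjusted p = 0.087) without HD28 replicate 3. In MLC against hepatocytes 25 of 38 were lower and 2 higher, where 12.0% of all genes were called lower and 18.4% higher. The 2 were Colec12 (log2 2.07) and Masp1 (1.72). In HD28 against hepatocytes 23 were lower and the same 2 higher (3.34 and 2.52). Of all genes, 11.2% were called lower and 15.3% higher there. In the 3 comparisons among MSC, dHD28 and MLC, limma called 0 of 38, and 0 had an unadjusted p under 0.05.

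**Figure D5:**
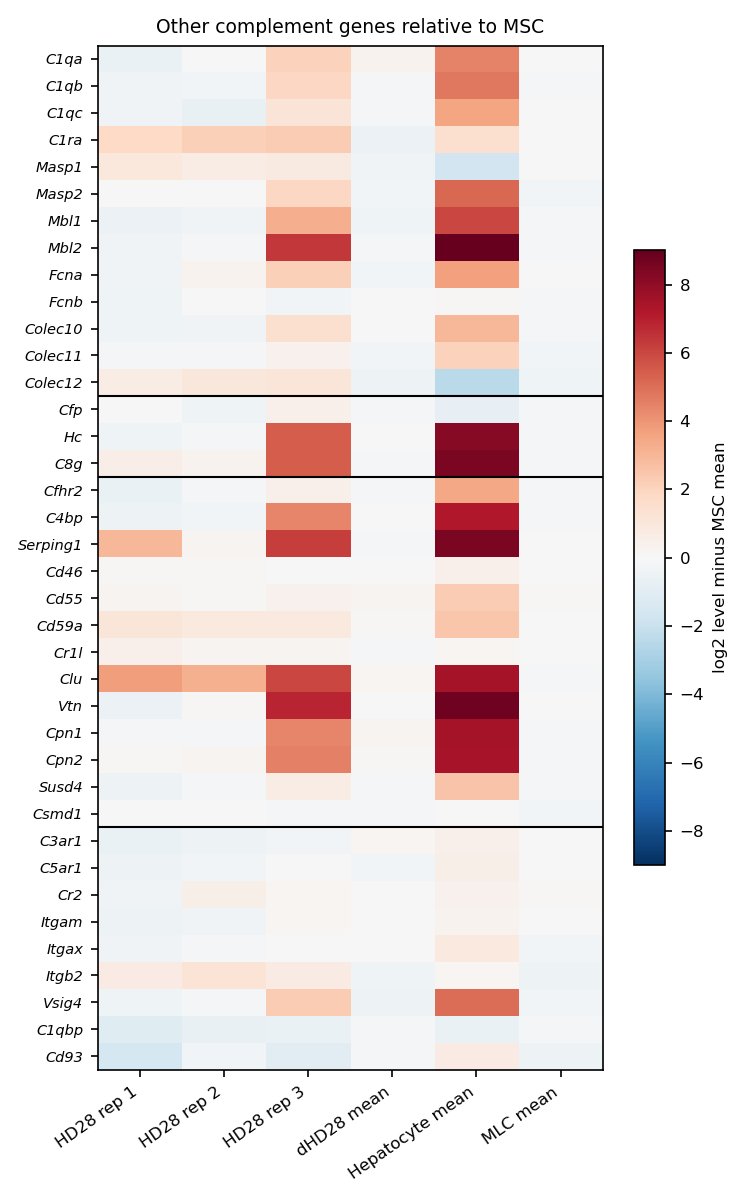
Log2 level minus the MSC mean (colour, red above and blue below) of 38 complement genes outside the members, in each HD28 array and in the means of 3 arrays of dHD28, Hepatocyte and MLC; black lines separate the lists of classical and lectin, alternative and terminal, regulator and receptor genes. C1ra and Clu are raised in all 3 HD28 arrays, Hc and Mbl2 are above the MSC mean in hepatocytes and in HD28 replicate 3 but not in HD28 replicates 1 and 2, and Masp1 and Colec12 are the 2 called lower in hepatocytes.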

How the data were processed

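Labelled cRNA from 5 µg of total RNA was hybridised to Affymetrix mouse arrays, per the labels' protocols. The deposited log2 values were made by the authors with robust multi-array average (RMA, no version given), per the submitters' processing notes; base 2 was inferred, since the values run from 1.32 to 14.15. No detection calls or genome build were given, and arrays have no read depth, and the number of arrays limits the precision. In the annotation 34945 probe sets had 1 gene symbol, 932 several, 9160 none and 64 were controls. The brightest probe set stood for a gene.

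Group means of all 15 arrays were fitted in R 4.3.3 by the lmFit and eBayes functions of limma 3.58.1 (10 residual degrees of freedom), for 8 comparisons, with Benjamini-Hochberg adjustment over 18193 genes. Standard errors pool the spread of all groups. The model was tested on simulated data. The members and lists were chosen with earlier results of these data known. Named besides the members are called genes of the complement lists, at most 4 per list, and the 4 genes most like a member called in HD28 with and without replicate 3. Values of Serping1, Hc, C8g, Cfp, Itgb2, Cd93 and C1qbp without a call were added after the values were seen. Alternatives treated probe sets, dim genes, normalisation, variance, arrays, spike-in class and replicate number differently.

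Samples of the same number deviated together from their group means in every pair of HD28 and dHD28 (correlations 0.32, 0.28 and 0.12). The same held for dHD28 and MLC (0.21, 0.78 and 0.60). All pairs of HD28 and dHD28 share the spike-in class. Between dHD28 and MLC the pairs at 0.78 and 0.60 share it, and the pair at 0.21 does not. Between dHD28 and MSC the pair that shares it had 0.69, and the others had -0.29 and -0.64. Correlations between samples of different number were not computed, so pairing by number cannot be told apart from the spike-in class. In each other comparison at least 1 pair was under 0.1.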

Additional observations from a re-analysis of the deposited data

How the results depend on the processing

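Over 64 values, 8 members in 8 comparisons, and 30 alternatives, 1894 of the recomputed values kept their side of the threshold, 24 lost a call, 2 gained one, and 0 called values changed sign (66 values without a call did). Of the 24 losses 23 were those of C1s1 and the other that of C8a in HD28 minus Hepatocyte among arrays of low spike-in signal (log2 -5.31, adjusted p = 0.058), an alternative chosen after seeing the data, as was the use of the other C2 probe sets. The number of members called in HD28 minus MSC, 2, became 1 when every probe set was tested on its own (C1s1 adjusted p = 0.060), and 1 when only the arrays compared were fitted (adjusted p = 0.12), and lay between 1 and 2 over the fits without 1 array. In dHD28 minus HD28 it lay between 1 (without dHD28 replicate 2) and 3 (without HD28 replicate 1). When the spike-in class was a block and HD28 replicate 3 was omitted, C2 was called lower in HD28 than in MSC (log2 -1.10, adjusted p = 0.038), in the brightest set. With the replicate number as a block, no call of a member changed: C1s1 had an adjusted p of 0.033 in HD28 minus MSC and 0.010 in dHD28 minus HD28. Centring on housekeeping genes moved the median of all genes from 0.04 to 0.71 in Hepatocyte minus MSC, from -0.06 to -0.79 in MLC minus Hepatocyte and from -0.11 to -0.64 in HD28 minus Hepatocyte, with the same number of members called. Over all genes, the 1231 calls in HD28 minus MSC became 1948 with no fold limit, 2072 over all probe sets and 789 among arrays of low spike-in signal. The 1605 in dHD28 minus HD28 became 2562 with no fold limit and 2813 over all probe sets. With no fold limit the 4825 in HD28 minus Hepatocyte became 8149 and the 5541 in MLC minus Hepatocyte 8488, and over all probe sets 8767 and 10217; the 5476 in Hepatocyte minus MSC became 9989 over all probe sets. Differences from groups below the array median are limited by background and approximate.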
